A study of Mus musculus with 28 samples.

Results

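The genes described here are 10 genes of the T cell receptor and of T cells in mouse skin: Trac, Trdc, Cd3d, Cd3e, Cd3g, Cd247, Cd4, Cd8a, Cd28 and Foxp3. They were taken by gene name and joined by Ensembl identifier, as 10 of the 51976 genes listed in both count tables. All 10 passed the low-count filter in the fits over all groups of an experiment, on which the values below rest. Cd3d did not pass it in 2 alternatives fitted on only the groups compared, UV in FL and cKO against FL after UV.

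Bulk RNA was sequenced from skin of 12-week-old female mice whose hair had been removed 5 days earlier. The UV groups received 500 mJ/cm² of ultraviolet B light, and the NoUV groups received none. The titles place the harvest at 3 h after UV and the treatment protocol at 1 day, and the labels do not settle which holds. The question, as far as the design states it, is how loss of Vsir, the gene of the immune checkpoint protein VISTA, alters skin with and without UV.

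The whole-body experiment held 4 groups of 3 libraries each: Vsir-/- mice after UV (KO_UV), Vsir-/- mice without UV (KO_NoUV), wild-type mice after UV (WT_UV) and wild-type mice without UV (WT_NoUV). The keratinocyte experiment held 4 groups of 4 libraries each: K14Cre-Vsir fl/fl mice after UV (cKO_UV) and without UV (cKO_NoUV), and floxed controls after UV (FL_UV) and without UV (FL_NoUV). The K14 promoter drives Cre in keratinocytes, so T cells and other skin cells of cKO mice keep Vsir. The labels call the tissue skin, whereas the title of the series calls it epidermis. Each library is labelled as a separate biological replicate.

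A T cell receptor is a pair of variable chains, either alpha with beta or gamma with delta, held at the membrane by the CD3 gamma, delta and epsilon chains and the zeta chain encoded by Cd247. Alpha-beta T cells use CD4 or CD8 as a coreceptor. In mouse skin, gamma-delta T cells are abundant: dendritic epidermal T cells sit among keratinocytes with one nearly uniform receptor, and other gamma-delta T cells live in the dermis. Trac encodes the constant part of the alpha chain and Trdc that of the delta chain, so they mark each lineage by its receptor. The CD3 chains and Cd247 are shared by both.

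Depth was 30.47 to 43.84 M counts a library in whole-body skin. It was 7.12 to 31.14 M counts in the skin of the keratinocyte experiment, where FL_NoUV 1 and cKO_UV 3 had under 8 M. Vsir averaged 2.99 CPM (counts scaled to the library's total) in KO_UV skin, 22.1 CPM in WT_UV skin, 6.14 CPM in KO_NoUV skin and 38.4 CPM in WT_NoUV skin, without overlap between KO and WT. Vsir averaged 28.04 CPM in cKO_UV skin and 29.5 CPM in FL_UV skin, and 33.8 CPM in cKO_NoUV skin and 25.3 CPM in FL_NoUV skin, with overlap, so it did not check the cKO labels. Hoxc10, a gene of posterior body position chosen after its values were seen, ran from 4.63 to 7.74 CPM in the UV libraries of the whole-body experiment and from 0 to 0.0579 CPM in its NoUV libraries. In that experiment, UV and a difference in the site of the skin cannot be told apart. In the keratinocyte experiment Hoxc10 ran from 0 to 4.71 CPM in FL_UV and from 0.567 to 4.98 CPM in FL_NoUV skin, with overlap. It ran from 0 to 0.0823 CPM in cKO_UV and from 0.0829 to 4.81 CPM in cKO_NoUV skin, without overlap. In comparisons that use cKO_UV skin, the part of a difference in site was not tested. In the summed level of hair follicle genes, WT_UV 3 (133 CPM) and WT_NoUV 3 (141 CPM) stood above the other whole-body libraries, which ran from 19.45 to 53.8 CPM. In the keratinocyte experiment that sum ran from 48.4 to 2865 CPM with UV and from 70.7 to 9550 CPM without, with cKO_NoUV 1 (9550 CPM) and FL_NoUV 4 (6467 CPM) highest. Its part in the values below was not tested beyond a fit with it as a covariate.

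Levels of different genes were set side by side as CPM per kilobase of exon length, averaged over the libraries of a group. In KO_NoUV skin Trac led with 6.27 ± 0.964 (SD, n = 3), followed by Cd3g with 3.17 ± 0.220, Trdc with 2.40 ± 0.413 and Cd3e with 2.15 ± 0.300. In WT_NoUV skin Cd3g (2.58 ± 0.569), Trac (2.29 ± 1.03) and Trdc (2.03 ± 0.726 CPM per kilobase) stood within their spread of each other. In KO_NoUV skin Trac and Cd3g each exceeded the next gene by more than the SD of either, whereas Trdc and Cd3e lay within their spread.

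After UV the order changed. In KO_UV skin Cd3g (2.12 ± 0.296), Cd4 (1.97 ± 0.906) and Trdc (1.26 ± 0.278 CPM per kilobase) led, ahead of Cd8a and Trac (1.07 ± 0.428 and 1.07 ± 0.432). In WT_UV skin Trdc (1.90 ± 0.895), Cd3g (1.63 ± 0.639) and Cd4 (1.54 ± 0.520) led, and Trac had 0.603 ± 0.137 CPM per kilobase. Cd28 and Foxp3 were the lowest of the 10 genes in all 4 whole-body groups, from 0.132 to 0.535 and from 0.112 to 0.299 CPM per kilobase.

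In the keratinocyte experiment Cd3e, Trac, Cd4 and Trdc led in every group but cKO_NoUV, where Cd3g (1.95 ± 0.931) lay above Cd4 (1.79 ± 0.755). In cKO_UV skin Cd3e had 2.68 ± 1.18, Trac 2.54 ± 1.32, Cd4 2.49 ± 0.863 and Trdc 2.44 ± 1.03 CPM per kilobase (SD, n = 4). In FL_NoUV skin Trac had 2.66 ± 1.49, Cd3e 2.56 ± 1.05, Cd4 2.54 ± 1.11 and Trdc 1.90 ± 0.745 CPM per kilobase. Cd3d was lowest or nearly so, at 0.250 ± 0.0850 in cKO_UV skin and 0.252 ± 0.180 in FL_NoUV skin. The order of the CD3 genes differed between experiments, Cd3g above Cd3e in the whole-body groups and Cd3e above Cd3g in the keratinocyte groups. The experiments were run as separate batches, and whether that order comes from the mice or the batch cannot be told apart.

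In whole-body skin 7 of the 10 genes fell after UV, averaged over KO and WT, and none rose. The comparison was made with edgeR over 20365 genes, of which 37.3% were called in either direction and 19% were called lower. The median log2 fold change of the 10 genes was −0.98, against 0.01 for all genes tested. The alpha constant gene Trac fell most, and the delta constant gene Trdc did not pass the test. In bulk skin, fewer T cells and less RNA per T cell cannot be told apart.

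**Figure D1:**
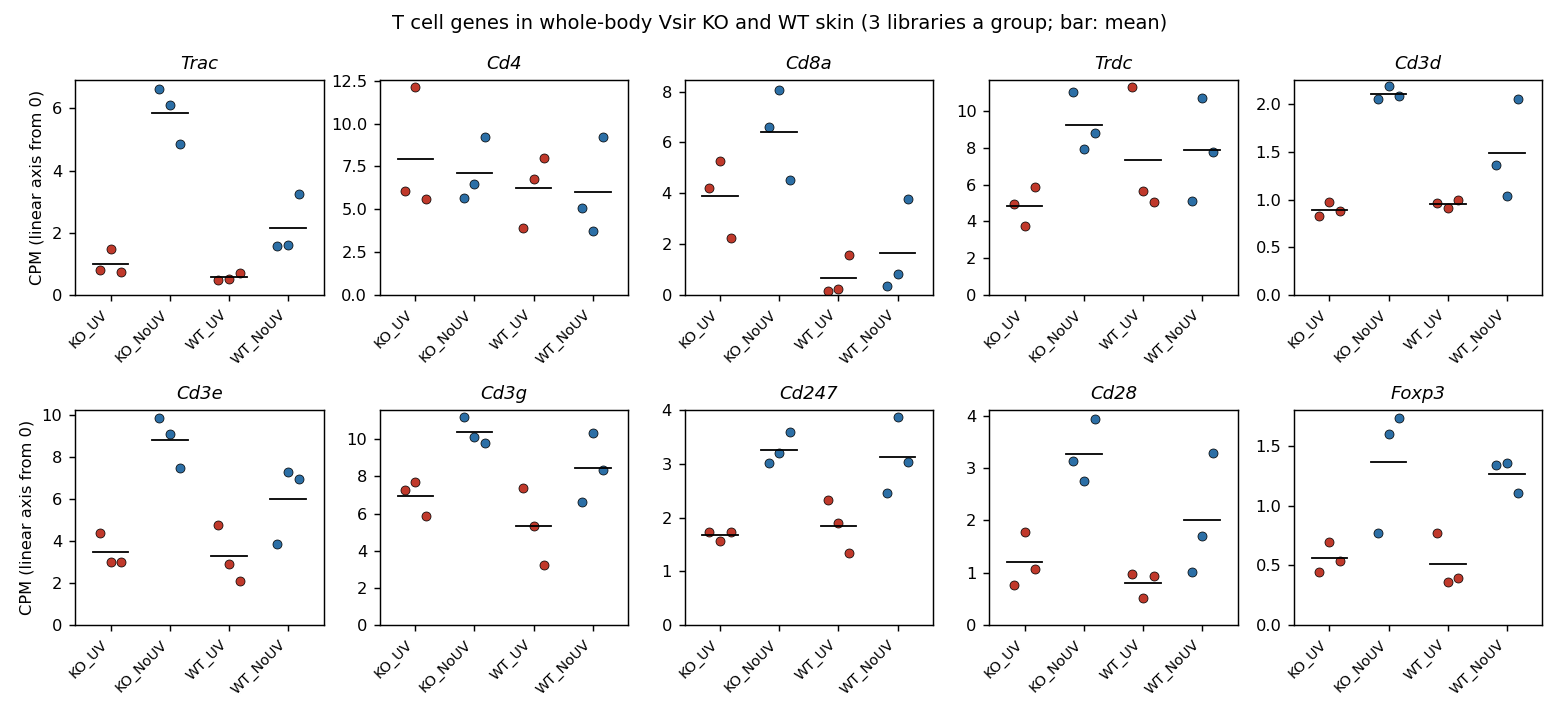
CPM of the 10 genes in each library of the whole-body experiment, on linear axes from 0, with KO_UV, KO_NoUV, WT_UV and WT_NoUV from left to right, 3 libraries a group and a bar at the mean. UV libraries are red and NoUV libraries blue; for Trac the UV libraries lie between 0.484 and 1.46 CPM and the NoUV libraries between 1.56 and 6.62 CPM.

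Trac lies on chromosome 14 (chr14:54220521-54224206, plus strand, GRCm38). In KO_UV skin it had 0.793, 1.46 and 0.733 CPM, from 23, 42 and 30 counts, against 6.62, 6.10 and 4.86 CPM in KO_NoUV skin, from 241, 259 and 168 counts. In WT_UV skin it had 0.484, 0.496 and 0.711 CPM, against 1.56, 1.61 and 3.25 CPM in WT_NoUV skin. The highest of the 6 UV libraries lay below the lowest of the 6 NoUV libraries. The log2 fold change was −2.24 ± 0.26 (SE) averaged over genotypes, 0.212 times the NoUV level (adjusted p = 3.67e-05). Within KO it was −2.56 ± 0.36 (adjusted p = 0.000532), and within WT it was −1.91 ± 0.37 (adjusted p = 0.00411).

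The variable and joining segments of the alpha locus carried few counts. Summed over 188 Trav and Traj segments, they gave 0.828, 1.18 and 0.684 CPM in KO_UV skin, against 2.12, 1.72 and 0.984 CPM in KO_NoUV skin. In WT_UV skin they gave 0.355, 0.248 and 0.569 CPM, against 0.286, 0.537 and 0.687 CPM in WT_NoUV skin. The UV and NoUV groups overlapped in both genotypes.

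The partner chain moved less. Trbc2, a constant gene of the beta chain, averaged 7.88 ± 1.6 CPM in KO_UV skin and 12.1 ± 0.92 CPM in KO_NoUV skin (SD, n = 3 each), and 12.4 ± 2.9 CPM in WT_UV skin and 14.6 ± 3.2 CPM in WT_NoUV skin. Its averaged UV log2 fold change was −0.43 (adjusted p = 0.0515), and that of Trbc1, the other beta constant gene, was −0.17 (adjusted p = 0.532). Neither passed the test. The 2 beta constant genes are near-identical in sequence, so the split of reads between them is uncertain.

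The coreceptor genes of alpha-beta T cells did not pass the UV test. Cd4 (chr6:124864692-124888221, minus strand), whose product binds MHC class II, had 6.04, 12.1 and 5.62 CPM in KO_UV skin, against 5.63, 6.50 and 9.21 CPM in KO_NoUV skin. In WT_UV skin Cd4 had 3.91, 6.75 and 8.00 CPM, against 5.04, 3.75 and 9.23 CPM in WT_NoUV skin. These groups overlapped throughout, and the averaged log2 fold change was 0.10 with a 95% interval from −0.49 to 0.69 (adjusted p = 0.796). CD4 is also known on some macrophages and dendritic cells, and of 9 macrophage genes 3 were called higher and none lower after UV. Its part in the Cd4 value was not tested.

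Cd8a (chr6:71373427-71379173, plus strand) encodes the alpha chain of CD8, which binds MHC class I. It had 4.21, 5.29 and 2.22 CPM in KO_UV skin, against 6.62, 8.07 and 4.51 CPM in KO_NoUV skin, and 0.161, 0.221 and 1.56 CPM in WT_UV skin, against 0.331, 0.821 and 3.79 CPM in WT_NoUV skin. WT_UV 3 and WT_NoUV 3 were the high libraries of their groups. The averaged UV log2 fold change was −1.02 ± 0.57 (SE), with a 95% interval from −2.24 to 0.21 (adjusted p = 0.181). Without WT_UV 3 and WT_NoUV 3, left out after the data were seen, the adjusted p was 0.0411. The averaged UV effect on Cd8a was called in 2 of 18 alternatives. Over these the log2 fold change ran from −1.91 to −0.24 and the adjusted p reached 0.748.

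Trdc (chr14:54142851-54148868, plus strand), the delta constant gene, had 4.97, 3.72 and 5.86 CPM in KO_UV skin, against 11.04, 7.93 and 8.83 CPM in KO_NoUV skin. In WT_UV skin it had 11.3, 5.65 and 5.07 CPM, against 5.09, 10.7 and 7.79 CPM in WT_NoUV skin. The KO groups did not overlap, and the WT groups did. The log2 fold change was −0.93 ± 0.33 within KO (adjusted p = 0.0629) and −0.10 ± 0.33 within WT (adjusted p = 0.876). Averaged, it was −0.51 ± 0.23, with a 95% interval from −1.02 to −0.01 and an adjusted p of 0.104. Within KO it was called in 8 of 19 alternatives, among them DESeq2 (adjusted p = 0.0306), no low-count filter (0.0224), the hair follicle covariate (0.0492) and only the groups compared (0.00613). The average was called in 2 of 18 alternatives, with adjusted p up to 0.25. The lowest, 0.0127, came from leaving out WT_UV 1, the highest Trdc library of the WT groups. An antisense gene, Gm43434, overlaps Trdc, and the strand setting of the counting is not given in the sources used here.

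Of the other named genes of the gamma-delta receptor, Tcrg-C4 alone passed the test. Tcrg-C1, a gamma constant gene, had an averaged UV log2 fold change of −0.46 (adjusted p = 0.175). Trdv4 and Tcrg-V5, the variable segments of the dendritic epidermal T cell receptor, had −0.67 (adjusted p = 0.0621) and 0.02 (adjusted p = 0.965). Tcrg-C4, another gamma constant gene, fell by 1.01 on the log2 scale (adjusted p = 0.032). It averaged 0.432 ± 0.24 CPM in KO_UV skin and 1.29 ± 0.47 CPM in KO_NoUV skin, and 0.729 ± 0.32 CPM in WT_UV skin and 1.03 ± 0.5 CPM in WT_NoUV skin (SD, n = 3 each).

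The ratio of Trac to Trdc counts within a library does not depend on depth or scaling. In KO_UV skin the log2 ratio was −2.62, −1.34 and −2.98, against −0.74, −0.38 and −0.86 in KO_NoUV skin. In WT_UV skin it was −4.50, −3.47 and −2.81, against −1.70, −2.72 and −1.26 in WT_NoUV skin. Neither genotype's UV libraries overlapped its NoUV libraries. UV minus NoUV was −1.68, or 0.312 times the NoUV ratio, with p = 0.005 in a two-sided exact permutation test within genotype, the smallest p that 400 arrangements can give (adjusted over 4 ratios, p = 0.01). The difference was −1.66 in KO and −1.70 in WT. Against the sum of Trbc1 and Trbc2, a denominator added after the data were seen, Trac was 0.281 times its NoUV ratio (exact permutation p = 0.005, adjusted p = 0.01).

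**Figure D2:**
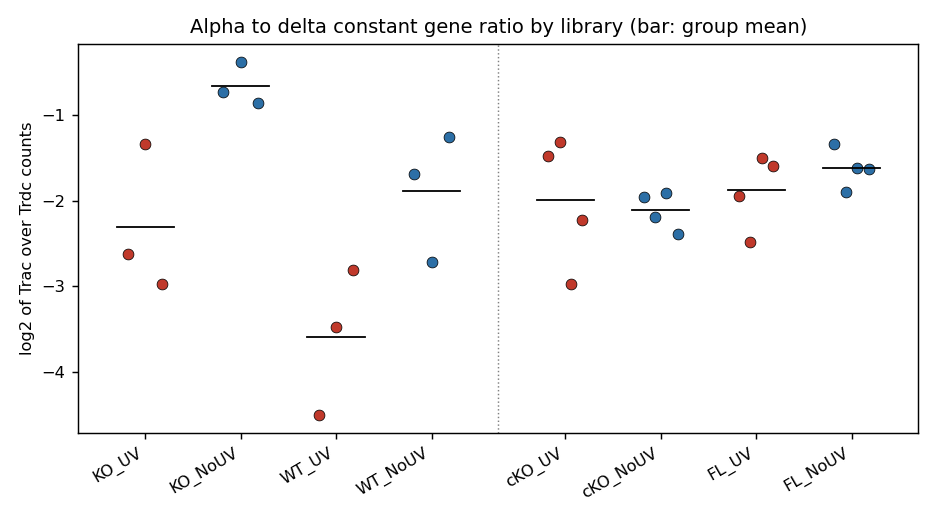
Log2 ratio of Trac to Trdc counts in each of the 28 libraries, with the whole-body groups left and the keratinocyte groups right of the dotted line, UV in red and NoUV in blue, and a bar at each group mean. In the whole-body experiment UV libraries average −2.95 and NoUV libraries −1.27; in the keratinocyte experiment they average −1.94 and −1.87.

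The 3 CD3 genes lie together on chromosome 9, with the starts of Cd3d and Cd3g 1355 bases apart and facing away from each other. The 250 bases upstream of each RefSeq start are shown for the 3 CD3 genes and Cd247, because these 4 shared chains all fell after UV in whole-body skin. Sequences are from RefSeq on GRCm38.p6, 5′ to 3′ on the gene's strand; 6 of the 10 genes had an entry. Capitals mark matches on either strand to the ETS motif AGGAAG or the GATA motif AGATAA.
Cd3d (chr9:44981536-44981785, plus strand): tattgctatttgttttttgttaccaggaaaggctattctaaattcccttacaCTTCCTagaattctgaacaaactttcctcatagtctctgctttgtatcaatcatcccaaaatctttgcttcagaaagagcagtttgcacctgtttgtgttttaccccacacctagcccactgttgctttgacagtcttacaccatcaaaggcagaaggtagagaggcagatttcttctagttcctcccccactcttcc
Cd3e (chr9:45009612-45009861, minus strand): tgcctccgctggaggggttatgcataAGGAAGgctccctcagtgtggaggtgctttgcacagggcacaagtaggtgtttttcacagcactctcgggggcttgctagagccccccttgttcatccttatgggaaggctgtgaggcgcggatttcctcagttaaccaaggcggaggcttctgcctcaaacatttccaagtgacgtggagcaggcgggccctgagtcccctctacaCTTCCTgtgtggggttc
Cd3g (chr9:44980432-44980681, minus strand): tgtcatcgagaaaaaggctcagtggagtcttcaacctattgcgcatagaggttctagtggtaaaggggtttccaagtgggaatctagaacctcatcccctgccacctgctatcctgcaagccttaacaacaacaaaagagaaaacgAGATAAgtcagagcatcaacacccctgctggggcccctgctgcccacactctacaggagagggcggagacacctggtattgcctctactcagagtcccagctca
Cd247 (chr1:165788431-165788680, plus strand): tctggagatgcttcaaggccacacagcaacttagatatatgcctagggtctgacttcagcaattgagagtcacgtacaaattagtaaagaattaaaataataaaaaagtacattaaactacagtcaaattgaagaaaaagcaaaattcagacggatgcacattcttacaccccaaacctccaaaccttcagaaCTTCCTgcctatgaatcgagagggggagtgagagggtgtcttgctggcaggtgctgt

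The letters AGGAAG or their reverse complement stand 1 time in the Cd3d window, 2 times in that of Cd3e, 1 time in that of Cd247 and 0 times in that of Cd3g, and 29.5% of 32851 promoter windows of this length hold them. AGATAA stands 1 time in the Cd3g window, and 9.99% of windows hold it. The RUNX motif TGTGGT stands in none of the 4 and in 14.0% of all windows. These matches describe the letters and are not evidence of binding.

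Cd3e (chr9:44998740-45009627, minus strand), the epsilon chain needed in every receptor complex, had 4.38, 2.99 and 3.00 CPM in KO_UV skin, against 9.83, 9.09 and 7.44 CPM in KO_NoUV skin. In WT_UV skin it had 4.75, 2.92 and 2.11 CPM, against 3.83, 7.26 and 6.93 CPM in WT_NoUV skin. The KO groups stood apart, while WT_UV 1 lay above WT_NoUV 1. Averaged, Cd3e fell by 1.11 ± 0.23 (SE) on the log2 scale (adjusted p = 0.0018); within KO the value was −1.35 (adjusted p = 0.00927) and within WT −0.88 (adjusted p = 0.0707).

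Cd3d (chr9:44981786-44987339, plus strand), the delta chain of CD3, had 0.828, 0.974 and 0.879 CPM in KO_UV skin, against 2.06, 2.19 and 2.08 CPM in KO_NoUV skin. In WT_UV skin it had 0.968, 0.910 and 0.996 CPM, against 1.37, 1.04 and 2.06 CPM in WT_NoUV skin. Neither genotype's groups overlapped, and the 6 UV libraries lay within a narrow band. Cd3d fell by 0.94 ± 0.20 averaged over genotypes (adjusted p = 0.00231).

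Cd3g (chr9:44969572-44980431, minus strand), the CD3 gamma chain, had 7.25, 7.72 and 5.86 CPM in KO_UV skin, against 11.2, 10.1 and 9.81 CPM in KO_NoUV skin, and 7.39, 5.35 and 3.22 CPM in WT_UV skin, against 6.63, 10.3 and 8.33 CPM in WT_NoUV skin. The KO groups did not overlap and the WT groups did. Its averaged change was the smallest of the 7, −0.62 ± 0.19 (adjusted p = 0.0201), and without KO_UV 3 the adjusted p was 0.0523.

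Cd247 (chr1:165788681-165877277, plus strand), the zeta signalling chain, which natural killer cells also use, had 1.73, 1.57 and 1.73 CPM in KO_UV skin, against 3.02, 3.20 and 3.59 CPM in KO_NoUV skin. In WT_UV skin it had 2.32, 1.90 and 1.34 CPM, against 2.47, 3.88 and 3.05 CPM in WT_NoUV skin. All 6 UV libraries lay below all 6 NoUV libraries. The averaged log2 fold change was −0.86 ± 0.18 (adjusted p = 0.00253). Cd247 shares bases with other annotated genes, among them Pou2f1, and reads from the overlap cannot be told apart without strand.

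Cd28 (chr1:60716800-60773359, plus strand), the main costimulatory receptor of T cells, had 0.759, 1.77 and 1.07 CPM in KO_UV skin, against 3.13, 2.75 and 3.94 CPM in KO_NoUV skin, and 0.968, 0.524 and 0.939 CPM in WT_UV skin, against 1.01, 1.70 and 3.29 CPM in WT_NoUV skin. Neither genotype overlapped, although WT_UV 1 lay close to WT_NoUV 1. Averaged, it fell by 1.37 ± 0.31 on the log2 scale (adjusted p = 0.00348).

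Foxp3 (chrX:7573644-7595245, plus strand) encodes the defining transcription factor of regulatory T cells. It had 0.449, 0.696 and 0.537 CPM in KO_UV skin, against 0.769, 1.60 and 1.74 CPM in KO_NoUV skin, and 0.775, 0.358 and 0.398 CPM in WT_UV skin, against 1.34, 1.36 and 1.10 CPM in WT_NoUV skin. The groups did not overlap in either genotype. The averaged log2 fold change was −1.30 ± 0.27 (adjusted p = 0.00234), and it was −1.29 within KO (adjusted p = 0.0297) and −1.32 within WT (adjusted p = 0.0322). Foxp3 overlaps Ppp1r3f, Ccdc22 and the antisense gene Flicr in the annotation, so part of its count is uncertain.

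Taken by genotype, 6 of the 10 genes were called lower in KO (Trac, Cd3e, Cd3d, Cd247, Cd28 and Foxp3), where 22.4% of all genes were called and 11.1% were called lower. In WT 2 were called lower (Trac and Foxp3), where 18.7% of all genes were called and 9.84% were called lower. The Foxp3 call in WT was lost without any one of WT_NoUV 1, WT_NoUV 2, WT_NoUV 3, WT_UV 2 or WT_UV 3 (adjusted p up to 0.0986). In KO the calls of Cd247, Cd28 and Foxp3 were each lost without any of 4 KO libraries (adjusted p up to 0.102), whereas Trac was called in both genotypes whichever library was left out. The difference between the genotypes' UV effects was tested directly and called for none of the 10, nor for any of 20365 genes (0%). At an unadjusted p under 0.05, 0 of the 10 and 313 of all genes passed, and DESeq2 called 0 of the 10. The difference, KO minus WT, was −0.65 ± 0.51 for Trac, with a 95% interval from −1.76 to 0.46, and −0.83 ± 0.47 for Trdc, with a 95% interval from −1.85 to 0.18.

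**Figure D3:**
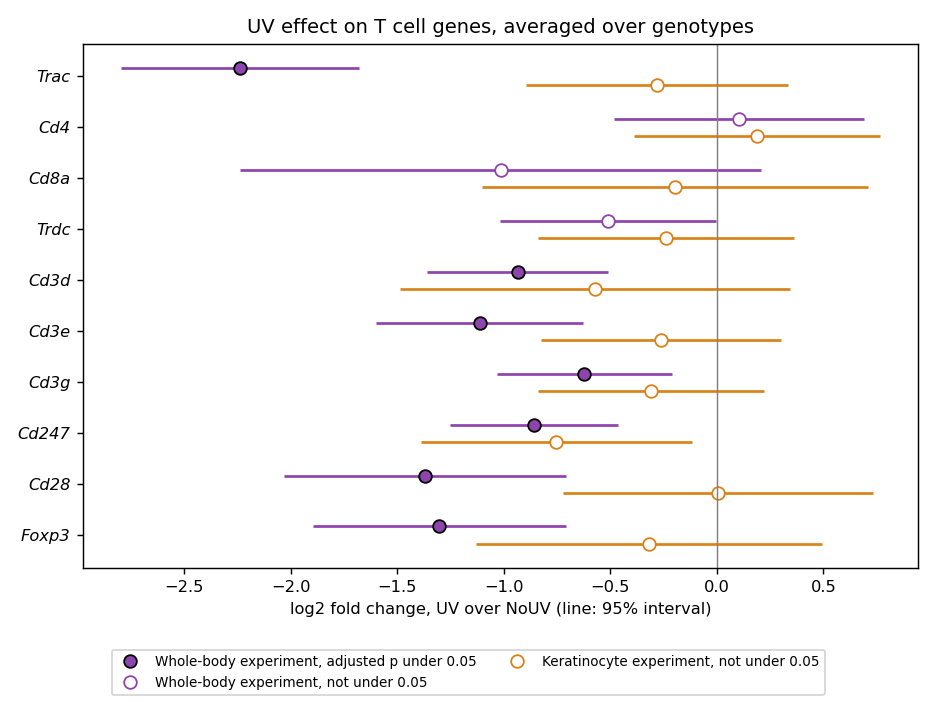
Log2 fold change of UV over NoUV, averaged over genotypes, for the 10 genes in the whole-body experiment (purple) and the keratinocyte experiment (orange), with 95% intervals; filled points have an edgeR adjusted p under 0.05. In the whole-body experiment 7 points are filled and Trac lies farthest left at −2.24; in the keratinocyte experiment no point is filled and Trac lies at −0.28.

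Gene lists around the receptor are given against the same UV comparison, in which 37.3% of all genes were called and 19% were called lower. Of 17 genes of proximal receptor signalling, 9 were called lower and 1 higher, with a median log2 fold change of −0.55, against 0.01 for all genes. Lck, the kinase that phosphorylates the CD3 chains, fell by 0.82 (adjusted p = 0.00475). Rasgrp1, an activator of Ras, fell by 1.67 (adjusted p = 1.51e-05), and the kinase Fyn fell by 0.54 (adjusted p = 0.00454). Rasgrp1 and Fyn are also expressed by keratinocytes, and of 7 keratinocyte genes 2 were called lower and none higher after UV; their part was not tested.

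Among 12 regulatory T cell genes 5 were called lower and 1 higher. Icos, a costimulatory receptor, fell by 2.09 (adjusted p = 4.65e-05), Il2ra, the high-affinity interleukin-2 receptor chain, by 1.42 (adjusted p = 0.000916), and the chemokine receptor Ccr8 by 1.76 (adjusted p = 0.00214). Il10, an anti-inflammatory cytokine that macrophages also make, rose by 2.09 (adjusted p = 0.00132). The list therefore held members that moved in both directions.

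Among 8 genes of circulating and naive T cells 5 were called lower and none higher. Ccr7, the receptor that guides T cells and dendritic cells to lymph nodes, averaged 0.119 ± 0.093 CPM in KO_UV skin and 1.35 ± 0.58 CPM in KO_NoUV skin (SD, n = 3 each). In WT_UV skin Ccr7 averaged 0.114 ± 0.13 CPM, and in WT_NoUV skin 1.10 ± 0.33 CPM; it fell by 3.33 on the log2 scale (adjusted p = 0.000132). Tcf7, a T cell transcription factor, fell by 1.34 (adjusted p = 1.91e-05), and Bcl11b, which keratinocytes also express, by 1.18 (adjusted p = 2.96e-05).

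Of 12 resident memory and cytotoxic genes 4 were called lower and none higher. Cxcr6, a chemokine receptor of resident T cells, averaged 2.18 ± 1.1 CPM in KO_UV skin and 11.4 ± 0.82 CPM in KO_NoUV skin, and 0.648 ± 0.14 CPM in WT_UV skin and 3.42 ± 1.8 CPM in WT_NoUV skin (SD, n = 3 each). It fell by 2.39 on the log2 scale (adjusted p = 5.87e-05). Cd69, a retention and early activation marker, fell by 1.34 (adjusted p = 0.000124), and Tbx21, the transcription factor T-bet, by 1.28 (adjusted p = 0.00944).

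Of 12 genes of epidermal gamma-delta T cells 4 were called lower and none higher. Il2rb, a chain of the receptor for interleukin-2 and interleukin-15, fell by 1.30 (adjusted p = 9.17e-05), Ahr, the aryl hydrocarbon receptor, by 1.29 (adjusted p = 4.98e-05), the chemokine Xcl1 by 1.18 (adjusted p = 0.016), and the activating receptor Klrk1 by 0.77 (adjusted p = 0.0265). Of 11 tested genes of dermal gamma-delta and type 17 cells, 4 were called lower and none higher, including Sox13 (−1.08, adjusted p = 0.000161) and Ccr6 (−1.43, adjusted p = 0.00129). Every call in these gamma-delta lists was lower, beside 19% of all genes called lower and 37.3% called in either direction. The resident memory and cytotoxic list, with 4 of 12 lower, had a like share. Nothing particular to any of these lists is read from their UV calls.

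Lists of other leukocytes moved in different directions. Of 6 pan-leukocyte genes 4 were called lower, Ptprc (CD45) by 0.60 (adjusted p = 0.0389), and of 10 dendritic and Langerhans cell genes 6 were called lower. Of 9 macrophage genes 3 were called higher, with a median log2 fold change of 0.42 and none below 0. Of 5 tested B and plasma cell genes 1 was called, Cd79a, which rose by 3.41 (adjusted p = 0.00132). In that list 3 genes lay below 0, and the median was −0.07. Of 10 skeletal muscle genes 4 were called higher and 1 lower. Their part in the T cell values was not tested. The summed level of the pan-leukocyte list ran from 178 to 304 CPM in KO_UV and from 229 to 274 CPM in KO_NoUV skin, and from 141 to 177 CPM in WT_UV and from 144 to 219 CPM in WT_NoUV skin. The summed level of 12 genes of the receptor complex and coreceptors ran from 39.6 to 49.3 CPM in KO_UV and from 70.0 to 76.9 CPM in KO_NoUV skin. In WT_UV skin that sum ran from 36.2 to 47.7 CPM and in WT_NoUV skin from 46.9 to 63.6 CPM. The receptor sums did not overlap in KO and did overlap in WT, and the pan-leukocyte sums overlapped in both genotypes. Only 3 of the 12 receptor genes are not among the members described above, so this sum largely repeats their values. Nothing particular to T cells is read from these sums.

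In the keratinocyte experiment none of the 10 genes was called after UV, averaged over cKO and FL, where 24.3% of 19718 genes were called. At an unadjusted p under 0.05 with edgeR, 1 of the 10 passed, Cd247, and DESeq2 called 0 of the 10. Over all genes, 7290 had an unadjusted p under 0.05. Within cKO none of the 10 was called (9.72% of all genes were), and within FL none was called (7.62% of all genes were). The median log2 fold change of the 10 genes, averaged over genotypes, was −0.27, against 0.01 for all genes.

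**Figure D4:**
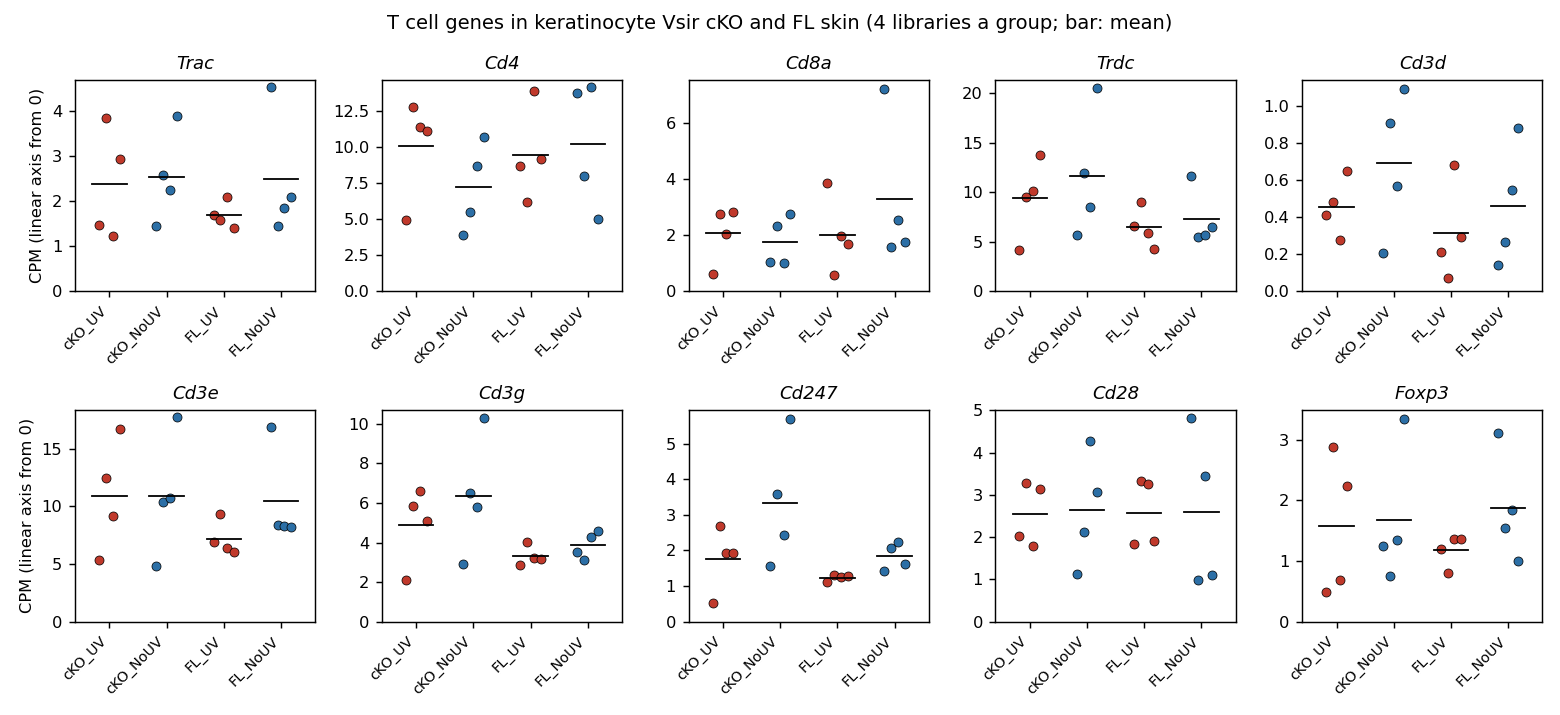
CPM of the 10 genes in each library of the keratinocyte experiment, on linear axes from 0, with cKO_UV, cKO_NoUV, FL_UV and FL_NoUV from left to right, 4 libraries a group and a bar at the mean. UV libraries are red and NoUV libraries blue; for Trac they run from 1.23 to 3.85 CPM with UV and from 1.45 to 4.53 CPM without.

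Trac had 1.48, 3.85, 1.23 and 2.93 CPM in cKO_UV skin, against 1.45, 2.59, 2.24 and 3.89 CPM in cKO_NoUV skin. In FL_UV skin it had 1.71, 1.59, 2.09 and 1.40 CPM, against 4.53, 1.46, 1.84 and 2.099 CPM in FL_NoUV skin. All groups overlapped. The averaged log2 fold change was −0.28 ± 0.29 (SE), with a 95% interval from −0.90 to 0.34 (adjusted p = 0.514).

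Trdc had 4.16, 9.58, 10.2 and 13.8 CPM in cKO_UV skin, against 5.72, 11.9, 8.49 and 20.6 CPM in cKO_NoUV skin, and 6.65, 9.02, 5.94 and 4.27 CPM in FL_UV skin, against 11.6, 5.54, 5.70 and 6.52 CPM in FL_NoUV skin. The highest library was cKO_NoUV 4, and that library was also the highest of its group for Cd3e, Cd3g, Cd3d, Cd247, Foxp3, Trac, Cd8a and Cd4. The averaged log2 fold change of Trdc was −0.24, with a 95% interval from −0.84 to 0.36 (adjusted p = 0.577).

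In cKO and FL skin the log2 ratio of Trac to Trdc overlapped between treatments. It averaged −1.94 ± 0.58 in UV libraries and −1.87 ± 0.335 in NoUV libraries (SD, n = 8 each), a difference of −0.07 with p = 0.77 in the two-sided exact permutation test (adjusted over 4 ratios, p = 0.814). The smallest p that this design can give is 0.000408.

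Cd247 came nearest to the threshold. It had 0.535, 2.68, 1.92 and 1.94 CPM in cKO_UV skin, against 1.57, 3.58, 2.44 and 5.69 CPM in cKO_NoUV skin, and 1.11, 1.30, 1.24 and 1.29 CPM in FL_UV skin, against 1.42, 2.08, 2.25 and 1.63 CPM in FL_NoUV skin. The FL groups did not overlap and the cKO groups did. The averaged log2 fold change was −0.75 ± 0.30, with a 95% interval from −1.39 to −0.12 (adjusted p = 0.0782).

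Of the remaining members, Cd3e had an averaged log2 fold change of −0.26 (95% interval from −0.83 to 0.30), Cd3g −0.31 (from −0.84 to 0.22) and Cd3d −0.57 (from −1.49 to 0.34). Cd28 had 0.01 (from −0.72 to 0.74), Foxp3 −0.32 (from −1.13 to 0.50), Cd4 0.19 (from −0.39 to 0.77) and Cd8a −0.20 (from −1.10 to 0.71). Each interval includes no change. Cd3d had at most 1.09 CPM in any library of this experiment, and the SE of its log2 fold change was 0.43.

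In the keratinocyte experiment 24.3% of all genes were called after UV in either direction. Of 17 proximal signalling genes 3 were called lower and none higher. They included Fyn (−0.63, adjusted p = 0.000549) and Rasgrp1 (−0.87, adjusted p = 0.0068). Of 8 genes of circulating and naive T cells 3 were called higher and 2 lower, the latter Bcl11b (−0.67, adjusted p = 0.00133) and Tcf7 (−0.54, adjusted p = 0.04). Of 9 tested resident memory and cytotoxic genes 2 were called higher and none lower, while 5 lay below 0 and the median was −0.02. The 2 called were Cd69, which rose by 1.30 (adjusted p = 0.00492), and the chemokine Ccl5, which rose by 1.27 (adjusted p = 0.0446). Of 10 skeletal muscle genes 6 were called higher and none lower, and their part was not tested. Cd69 had averages of 3.47 ± 1.1 CPM in cKO_UV skin and 1.32 ± 0.65 CPM in cKO_NoUV skin, and 3.66 ± 0.32 CPM in FL_UV skin and 1.71 ± 1.2 CPM in FL_NoUV skin (SD, n = 4 each).

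The UV effects of the 2 experiments were compared in one edgeR model over 21851 genes, of which 9.09% were called and 3.98% were called lower in the whole-body experiment. Among the 10 genes 1 was called, Trac, with a difference of −1.96 ± 0.41 (SE), whole-body minus keratinocyte, and an adjusted p of 0.00338. All 10 differences lay below 0, with a median of −0.60, against −0.01 for all genes. Cd28 had −1.39 ± 0.50 (adjusted p = 0.0821), Foxp3 −0.99 ± 0.52 (adjusted p = 0.261) and Cd3e −0.86 ± 0.38 (adjusted p = 0.164), while Trdc had −0.29 ± 0.40 (adjusted p = 0.746). Cd69 differed by −2.65 (adjusted p = 0.000133), Ccr7 by −2.52 (adjusted p = 0.0123) and Cxcr6 by −1.53 (adjusted p = 0.0397). Experiment, batch and the Hoxc10 difference between all UV and NoUV libraries of the whole-body experiment coincide. Their parts in these values cannot be told apart.

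Loss of Vsir in all cells went with more Trac and more Cd8a RNA. Averaged over UV and NoUV, 2 of the 10 genes were called higher in KO than in WT skin, where edgeR called 7.45% of all genes and 3.93% higher. Trac was 2.19 times as high in KO (log2 fold change 1.13 ± 0.26, SE, adjusted p = 0.0253). Cd8a was 4.82 times as high (2.27 ± 0.58, adjusted p = 0.0369). The 6 KO libraries ran from 2.22 to 8.07 CPM for Cd8a and the 6 WT libraries from 0.161 to 3.79 CPM, so the sets overlapped through WT_NoUV 3 alone. After UV the lowest KO library (2.22 CPM) lay above the highest WT library (1.56 CPM).

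**Figure D5:**
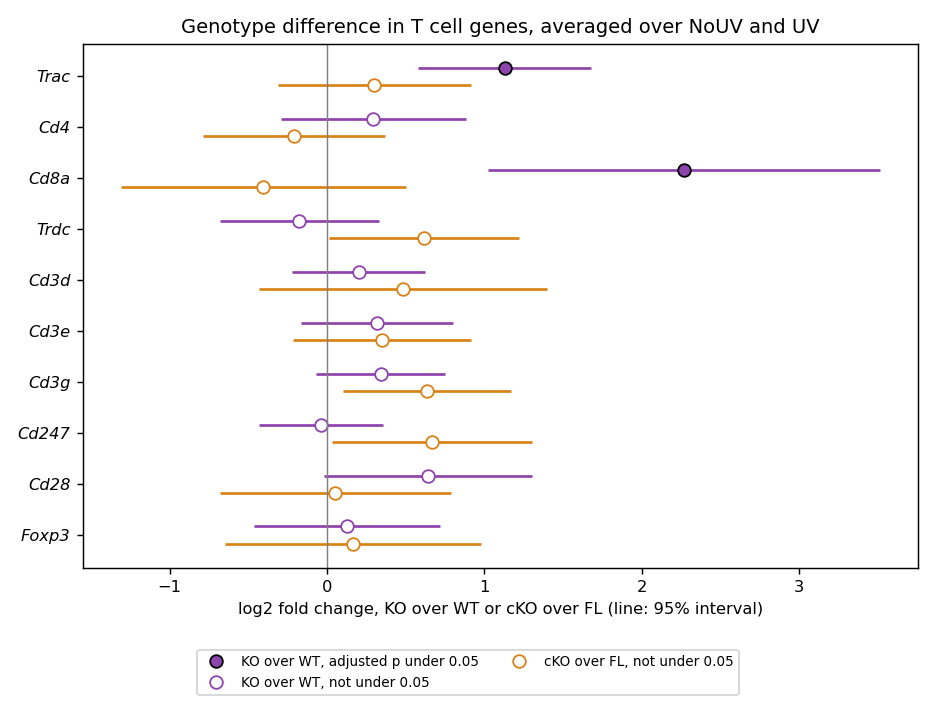
Log2 fold change of KO over WT (purple) and of cKO over FL (orange), averaged over UV and NoUV, for the 10 genes with 95% intervals; filled points have an edgeR adjusted p under 0.05. Trac at 1.13 and Cd8a at 2.27 are the filled points, both for KO over WT.

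Both calls depended on single libraries. The Trac call was lost when any one of WT_UV 2, KO_NoUV 1, KO_NoUV 2 or KO_UV 2 was left out (adjusted p up to 0.0831). The Cd8a call was kept in 4 of 12 such fits (adjusted p up to 0.101) and was lost with no filter on low counts (adjusted p = 0.12).

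Taken separately, no member was called between KO and WT without UV, where 0.00982% of all genes were called, or after UV, where 0.0442% were. At an unadjusted p under 0.05, 2 of the 10 passed without UV and 1 after UV, as did 3219 and 3071 of 20365 genes. DESeq2 called 584 genes without UV, among them Trac (adjusted p = 0.0053) as the one member, and 444 genes and 0 of the 10 after UV. Trac was 1.45 ± 0.34 higher in KO without UV (adjusted p = 0.137) and 0.80 ± 0.38 higher after UV (adjusted p = 0.344). Cd8a was 1.97 ± 0.79 higher without UV (adjusted p = 0.262) and 2.56 ± 0.85 higher after UV (adjusted p = 0.235).

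The beta chain of CD8 gave a like value. Cd8b1 averaged 1.30 ± 0.73 CPM in KO_UV skin and 0.161 ± 0.26 CPM in WT_UV skin, and 2.33 ± 1.1 CPM in KO_NoUV skin and 0.767 ± 0.83 CPM in WT_NoUV skin (SD, n = 3 each). Its averaged log2 fold change was 2.28 (adjusted p = 0.0472). In both WT groups the SD exceeded the mean, and few reads stand behind the WT_UV value. Fits without single libraries were recorded for the members alone and not for Cd8b1. The other members did not pass: Cd4 had 0.29 (95% interval from −0.29 to 0.88), Trdc −0.18 (from −0.68 to 0.33), Cd3e 0.32 (from −0.16 to 0.80), Cd247 −0.04 (from −0.43 to 0.35) and Foxp3 0.13 (from −0.46 to 0.72). The beta constant gene Trbc2 had −0.46 (adjusted p = 0.083).

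Of 12 resident memory and cytotoxic genes, 6 were called higher in KO and none lower, with a median log2 fold change of 1.22, against 0.02 for all genes. Cxcr6 rose by 1.74 (adjusted p = 0.01), Cd69 by 0.87 (adjusted p = 0.0213) and Ccl5 by 1.58 (adjusted p = 0.0217). The remaining 3 are named after their values were seen: the granule protease Gzma (1.80, adjusted p = 0.017), the cytokine Ifng (2.38, adjusted p = 0.0262) and the transcription factor Eomes (2.37, adjusted p = 0.0447). Ifng averaged 0.169 ± 0.089 CPM in KO_UV skin and 0.0566 ± 0.075 CPM in WT_UV skin, and 0.472 ± 0.06 CPM in KO_NoUV skin and 0.0483 ± 0.023 CPM in WT_NoUV skin (SD, n = 3 each), so few reads stand behind it.

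No regulatory T cell gene of 12 and no circulating T cell gene of 8 was called in KO against WT. Of 17 proximal signalling genes 3 were called higher, beside 7.45% of all genes called in either direction. Klrk1, the activating receptor NKG2D of natural killer, CD8 and epidermal T cells, rose by 1.01 (adjusted p = 0.0334), and Tcrg-C2 by 0.91 (adjusted p = 0.0435). Genes of other cell types differed as well. Of 7 keratinocyte genes 3 were called lower in KO, among them Krt14 (−1.27, adjusted p = 0.0432). Of 10 dendritic and Langerhans cell genes 4 were called higher. Of 10 skeletal muscle genes 3 were called higher, with a median log2 fold change of 0.58. In bulk skin, a change in the number of these cells and in their RNA per cell cannot be told apart. The summed keratinocyte list ran from 11880 to 18500 CPM in KO_UV and from 21480 to 32440 CPM in WT_UV skin, and from 14940 to 18760 CPM in KO_NoUV and from 24950 to 36220 CPM in WT_NoUV skin. These sums did not overlap between genotypes, and their part in the T cell values was not tested.

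In cKO against FL skin none of the 10 genes was called, whether averaged over UV and NoUV, without UV or after UV. In these comparisons edgeR called 0% of 19718 genes. Vsir RNA overlapped between cKO and FL skin, so a loss of Vsir in keratinocytes was not seen in these data. Averaged, 3 of the 10 had an unadjusted p under 0.05, as did 2171 of all genes. Cd247 had a log2 fold change of 0.67 ± 0.30, cKO over FL (adjusted p = 0.441), Cd3g 0.63 ± 0.25 (adjusted p = 0.411) and Trdc 0.62 ± 0.28 (adjusted p = 0.445). Trac had 0.30, with a 95% interval from −0.31 to 0.92, and Cd8a −0.40, with an interval from −1.31 to 0.50. The difference between the UV effects of cKO and FL skin was called for none of the 10 and for 0% of all genes. DESeq2 also called none of the 10 in these 4 comparisons.

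The genes whose pattern over all 28 libraries was most like that of a member were found by the root mean square difference of log2 CPM centred within each experiment, over 14467 genes. For Trdc the nearest were Tcrg-C1 (0.304), Slc2a12 (0.314) and Trdv4 (0.342), against a median of 0.657 over all genes, so Tcrg-C1 and Trdv4 among these were genes of the gamma-delta receptor. For Cd3e the nearest were Gpr141 (0.320), Jade1 (0.328) and Ahr (0.344), against a median of 0.694. These values describe likeness in 28 libraries that differ in depth and come from separate batches.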

How the data were processed

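RNA from 28 skin libraries was analysed as 2 experiments, whole-body (12 libraries) and keratinocyte (16 libraries), each with its own table. The deposited values are raw read counts per gene, with no normalization by the authors, beside a gene length in bases. The submitters' processing notes name cutadapt 4.6, HISAT2 2.1.0, Subread and featureCounts and the build GRCm38. Per the labels' protocols, RNA had an integrity number of at least 8, was depleted of ribosomal RNA and was made into stranded libraries, read as pairs of 100 bases. The counting's strand and multiple-alignment settings are not given in the sources used here. Of identifiers found in GENCODE M21, 99.62% of 55394 lay at their GRCm38 position in the whole-body table and 2.76% of 51884 in the keratinocyte table. Coordinates printed are those of the whole-body table, and tables were joined by identifier.

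Groups were taken from titles. Counts were tested with edgeR 4.0.16 (R 4.3.3): genes were filtered with filterByExpr, scaled by TMM, fitted with 1 coefficient per group and tested by robust quasi-likelihood. P-values were adjusted by Benjamini and Hochberg over all genes of a fit, and adjusted p under 0.05 counts as called. CPM uses TMM-scaled totals. Averaged effects weight genotypes or treatments equally. UV effects of the 2 experiments were compared in a joint fit of 8 groups. Ratios used a pseudocount of 0.5 counts and an exact permutation of UV labels within genotype. Intervals are 95% and come from the fit's SE. On simulated counts, log2 changes of 1 were called for 77% of changed genes and changes of 2 for 100% (UV averaged over WT and KO, 19810 genes). The shares were 77% and 98% for UV averaged over FL and cKO (19476 genes). Each size of change was given to 100 genes averaging at least 1 CPM, fewer than were called in the real fits. Genes below that level, such as Cd3d in the keratinocyte experiment, are not covered, and the shares are not the power for single members.

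Alternatives were DESeq2 1.42.0, another scaling (RLE), no low-count filter, a replicate block, a hair follicle covariate, only the groups compared, and leaving out each library. Of 36 pairs of replicates none was a duplicate: the smallest chi-square per degree of freedom was 26.42. Samples with the same replicate number were more alike than those with different numbers, and the main fits left the numbers out. Outside the 10 genes, the text names at most 4 genes of each of 15 lists, those called in an averaged UV or a genotype comparison with the smallest UV p, plus the constant genes and segments of the receptor loci and 3 genes nearest in pattern to Cd3e and Trdc. The members and lists were chosen with earlier results of these data known.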

Additional observations from a re-analysis of the deposited data

Results flagged for a closer look

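In FL_NoUV skin, library FL_NoUV 1 stood far from the other 3 libraries for 2 of the 10 genes. Cd3e had 16.85 CPM there, against 8.21 to 8.42 CPM in the others. Trdc had 11.61 CPM there, against 5.54 to 6.52 CPM in the others. FL_NoUV 1 is the library with the fewest counts, 7.12 M, and it was also the highest of its group for Trac (4.53 CPM), Cd8a (7.22 CPM), Cd28 (4.82 CPM) and Foxp3 (3.12 CPM), but not for Cd3d, Cd3g, Cd247 or Cd4. Among 40 combinations of gene and group tested in this way, chance flags about 1 in 20.

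The UV effect on Trac differed between the experiments by −1.9643 on the log2 scale, whole-body minus keratinocyte, with an edgeR adjusted p of 0.00338 in the joint fit. Trac was lower in 6 of 6 whole-body UV libraries than in the lowest NoUV library of its own genotype. The experiments also differ in batch and in the Hoxc10 level of UV against NoUV skin, and these cannot be told apart.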

How the results depend on the processing

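Over all alternatives, 3208 values of single genes were recomputed. Of these 2945 kept direction and side of the threshold, 186 changed sign without being called in either fit, 34 lost a call, 43 gained one and 0 called values reversed. The UV calls of Trac in WT, in KO, averaged and between experiments held in every alternative run.

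The count of the 10 genes called for UV in WT (2) was 4 with no low-count filter, 5 with DESeq2, 4 with the hair follicle covariate, and 1 with the replicate block, with only the groups compared, or without WT_NoUV 3 and WT_UV 3. KO against WT without UV (0) became 1 with no filter or DESeq2 (Trac) and 1 with the covariate or without those WT libraries (Cd8a). KO against WT after UV (0) became 1 with the last 2 settings (Cd8a). The averaged genotype count (2) was 1 with no filter, and 3 with the covariate (adjusted p = 0.0426) or without WT_NoUV 3 and WT_UV 3 (adjusted p = 0.0492), where Cd28 was added. UV averaged over FL and cKO (0) became 1 with the replicate block or the covariate (Cd247). The difference between experiments (1) became 2 with DESeq2 or the covariate (Cd28 added). The cause was not tested.

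Leaving out one library gave 1 to 5 for UV in WT, 3 to 7 for UV in KO, 6 to 8 for UV averaged over WT and KO, 0 to 3 for KO against WT averaged, 0 to 1 for UV averaged over FL and cKO, 1 to 2 between experiments, and 0 to 0 elsewhere. Samples with the same number correlated above 0.1 in 11 of 18 whole-body (median 0.191) and 13 of 24 keratinocyte pairs (median 0.29). Samples with different numbers did so in 8 of 36 (median −0.08) and 26 of 72 pairs (median −0.044). Likeness by number was thus seen, and the main fits did not use it. With the number as a replicate block in the Trac to Trdc ratio, the exact p was 0.0312 in the whole-body experiment, lower in 6 of 6 pairs, and 0.773 in the keratinocyte experiment. Without WT_NoUV 3 and WT_UV 3, chosen after seeing the data, Cd8a passed in both genotype comparisons. At these depths 3 counts equal 0.0661 to 0.104 CPM in the whole-body and 0.0939 to 0.424 CPM in the keratinocyte libraries.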

Other observations

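Segments of the beta locus gave more counts than those of the alpha locus in all 12 whole-body libraries, whereas alpha segments gave more than beta segments in 9 of 16 keratinocyte libraries. Summed over 49 Trbv and Trbj segments, they had 1.66, 2.12 and 1.10 CPM in KO_UV skin, against 3.49, 2.92 and 2.52 CPM in KO_NoUV skin. In WT_UV skin they had 1.32, 1.43 and 0.882 CPM, against 1.92, 1.80 and 2.06 CPM in WT_NoUV skin. Neither genotype's UV libraries overlapped its NoUV libraries. Segments of the delta locus, 8 in all, had 0.932, 1.15 and 1.15 CPM in KO_UV skin, against 1.95, 1.55 and 2.23 CPM in KO_NoUV skin, and 2.36, 1.27 and 1.02 CPM in WT_UV skin, against 1.43, 3.12 and 2.33 CPM in WT_NoUV skin, with overlap in WT alone. No test was made on these sums.

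Single genes of other cell types moved in the same fits. Averaged over KO and WT, the B cell receptor gene Cd79a rose by 3.41 after UV (adjusted p = 0.00132). It was the 1 gene called of 5 tested B and plasma cell genes, of which 3 lay below 0. In the keratinocyte experiment Cd79a rose by 2.63 (adjusted p = 0.00449). The macrophage scavenger receptor Cd163 rose by 0.86 in the whole-body experiment (adjusted p = 0.00143) and by 0.86 in the keratinocyte experiment (adjusted p = 0.049). Gata3, a transcription factor of T cells, innate lymphoid cells and keratinocytes, fell by 1.28 in the whole-body experiment (adjusted p = 2.25e-06) and by 0.68 in the keratinocyte experiment (adjusted p = 0.00118). Xcr1, a chemokine receptor of cross-presenting dendritic cells, fell by 2.1 in the whole-body experiment (adjusted p = 7.09e-05) and had 0.09 in the keratinocyte experiment (adjusted p = 0.906).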
